A study of Arabidopsis thaliana with 23 samples.

Results

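Axillary buds can be set free to grow by cutting off the shoot tip or by losing BRC1, and these 2 ways of release were compared directly in Arabidopsis thaliana. The comparison set 3 RNA-seq libraries from decapitated wild type (WT) against 3 from intact brc1-2 mutants, which are 6 of the 23 samples of the series. The libraries were chosen by their labels alone, and all genes were considered. Decapitated WT plants were of the Col-0 accession and had lost the main shoot below its lowest cauline node, which was cut away once the main inflorescence was about 1 cm long. The brc1-2 plants carried the brc1-2 mutant allele of BRC1 in Col-0 and kept their shoot. A further 3 libraries, from intact Col-0 WT plants, served as the reference for both groups. The tissue was the same in all 9 libraries, buds taken with the rosette leaf axil below them, and all carried the same batch label. How long after decapitation the tissue was taken is not stated in the sources used here. The labels are also silent on whether the 3 libraries of each group stem from separate plants, so p-values measure only how far these libraries spread, and that spread may be technical.

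BRC1 is a TCP transcription factor that acts inside axillary buds as a brake on their outgrowth, and strigolactone, auxin from the shoot tip and shade all act on it. It switches on the HD-ZIP genes HB21, HB40 and HB53, which in turn raise NCED3, a gene for abscisic acid synthesis. Decapitation works from outside the bud: it removes the source of auxin at the tip, changes the flow of sugars, and leaves a wound that makes jasmonate.

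Gene counts totalled 47462342 to 61228766 per library, and 21539 genes passed the filter on low counts and were tested. The 3 groups stood apart and the libraries within each lay close together: the first principal component, with 42.5% of the variance, separated intact WT from both other groups, and the second, with 33.1%, separated decapitated WT from brc1-2. Libraries of 1 group differed by more than counting noise in every pair (chi-square over its degrees of freedom, 3.05 to 7.44). Levels below are counts per 1000000 counts of the library (CPM), with libraries listed in the order of their labels. Log2 differences are decapitated WT minus brc1-2 unless stated otherwise, with a standard error (SE) derived from the test. "Higher" or "lower" refers to decapitated WT against brc1-2 at an adjusted p under 0.05 in edgeR's quasi-likelihood test with Benjamini-Hochberg adjustment over all genes tested.

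Buds released by cutting and buds released by the mutation differed at many genes, mostly by little. Of the 21539 genes, 5256 (24.4%) were higher after decapitation and 5192 (24.1%) were lower, together 48.5%. For 11738 genes (54.5%) the libraries of the 2 groups did not overlap in CPM, so lack of overlap was common. The median size of a called difference was 0.32 on the log2 scale, and the median over all genes was -0.0037. A difference of 2-fold or more was called for 417 genes higher (1.94%) and 797 lower (3.7%). For 14715 genes (68.3%) the 95% interval of the difference lay within 1.5-fold in either direction, and 6770 of these were called all the same. Intact WT did not sit at one end: among the 797 genes lower by 2-fold or more, the WT level lay between the 2 groups and nearer brc1-2 for 297 (37.3%), between them and nearer decapitated WT for 232 (29.1%), at or above both for 158 (19.8%) and at or below both for 110 (13.8%). Among the 417 higher genes the same counts were 103 (24.7%), 126 (30.2%), 107 (25.7%) and 81 (19.4%). Of the 773 different genes on the 54 lists described below, 711 were tested, of which 220 were higher, 284 lower and 207 not called.

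**Figure D1:**
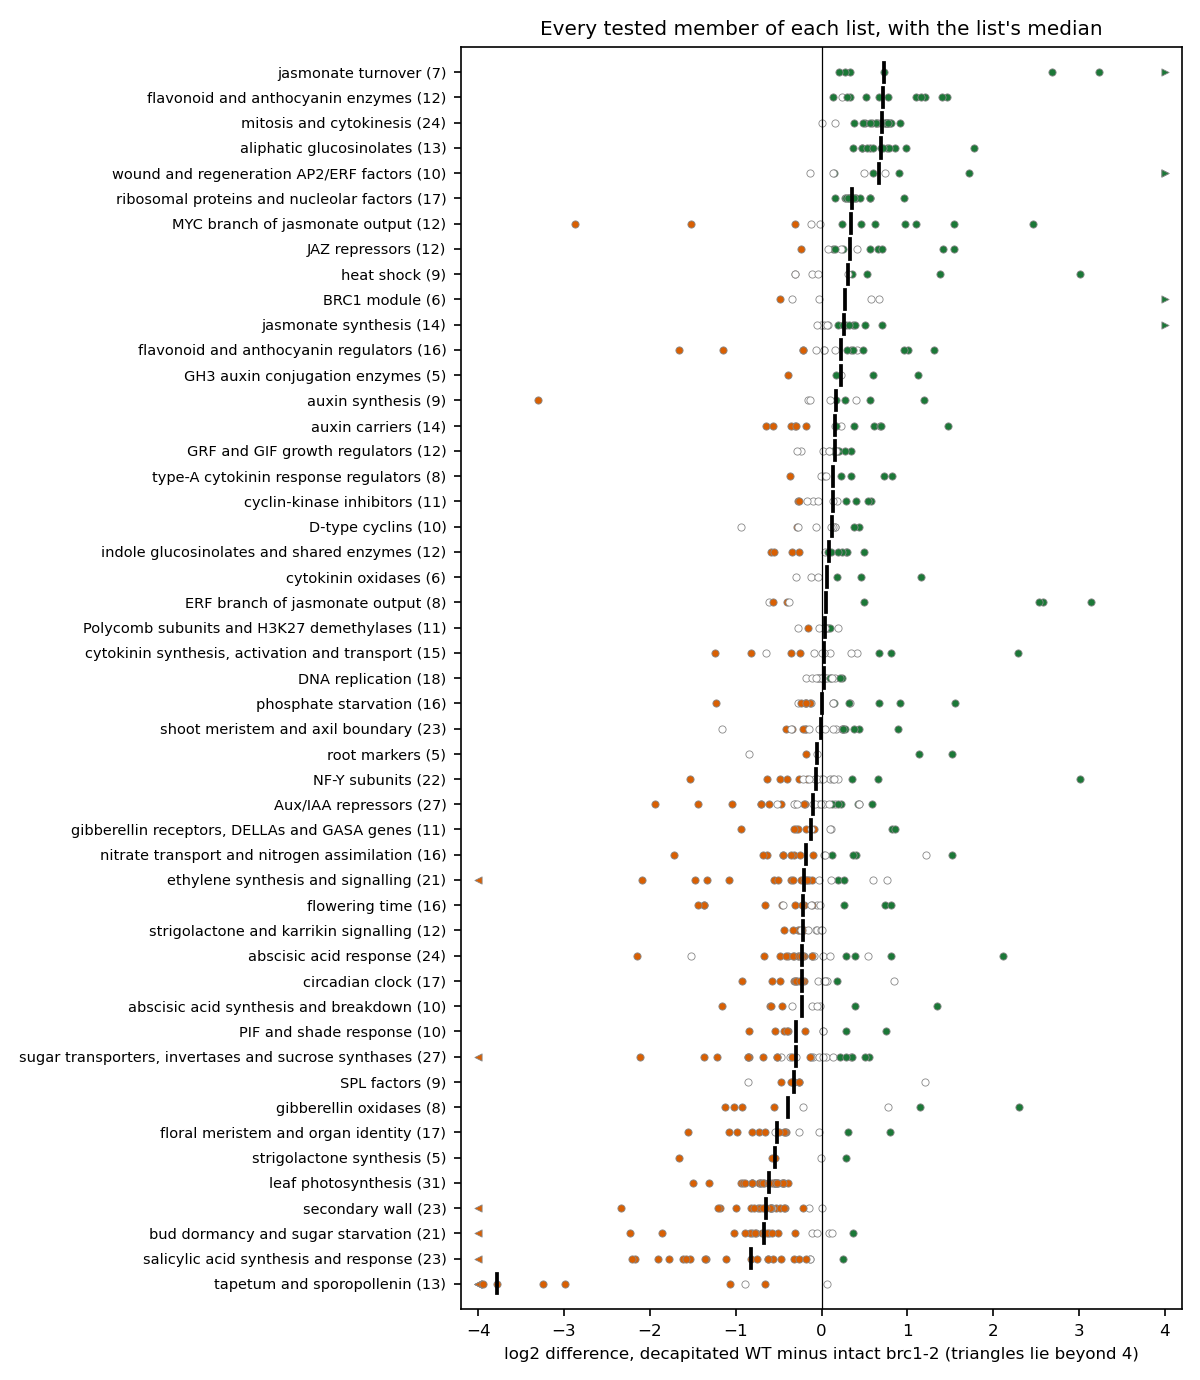
Log2 difference between decapitated WT and intact brc1-2 for every tested member of each list with at least 5 tested members (number in parentheses), 3 libraries per group. Green points passed the test as higher, orange points as lower and white points did not pass, and the black bar is the list's median, which runs from 0.73 for jasmonate turnover to -3.78 for tapetum genes, 4 of whose 13 tested members had to be lower because they passed the filter on low counts only through brc1-2.

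RNA of leaf and of some other tissues stood at different levels in the groups. All 31 tested leaf photosynthesis genes were lower after decapitation, with a median of -0.61. Their summed level was 67720, 68193 and 63850 CPM in decapitated WT, 103490, 104390 and 104710 in brc1-2 and 86815, 86643 and 86058 in intact WT, so brc1-2 lay above intact WT and decapitated WT below it. CA1, a carbonic anhydrase of the leaf, read 559, 559 and 580.3 CPM after decapitation against 1394, 1394 and 1409 in brc1-2 (-1.31 ± 0.02, adjusted p = 2.1e-25). LHCB1.4 (-1.49 ± 0.03) and LHCB2.2 (-0.91 ± 0.02), which encode light-harvesting proteins, and RBCS3B (-0.81 ± 0.02), a small subunit of Rubisco, were lower too; copies of the LHCB1 and RBCS families are near-identical, so reads may be split among them. All 4 guard cell markers were lower, from HT1 (-1.04) and KAT1 (-1.01), a potassium channel, to FAMA (-0.32), a regulator of guard cell fate. Their summed level was 37.8, 40.98 and 37.5 CPM against 63.3, 62.5 and 59.9, with 39.1, 34.97 and 37.3 in intact WT. Of 3 phloem markers, SUC2, the companion cell sucrose carrier, and SEOR1, a sieve element protein, were lower (-0.35 and -0.14), and the list's summed level was 122, 121 and 119 CPM against 139.5, 140.3 and 143. The 3 markers of trichomes, the leaf hairs, had a summed level of 31.5, 33.8 and 34.9 CPM against 34.2, 35.7 and 32.1: GL1, which starts trichomes, was higher (0.67) and TRY, which represses them, was lower (-0.97). Of 8 root markers 5 were tested, of which 2 were higher, 1 lower and 2 not called, with a median of -0.05. The shares over all genes were 24.4% higher and 24.1% lower. PYK10, a beta-glucosidase abundant in roots, was higher at 513, 514 and 519.9 CPM against 178, 181 and 178 and 322, 324 and 304 in intact WT (1.53 ± 0.03, adjusted p = 2.4e-25). WOX5, of the root stem cell niche, was the other higher marker (1.134 ± 0.46, adjusted p = 0.042), a call lost in 5 fits that left out 1 library (intact WT 3, brc1-2 1 or 2a, decapitated 1 or 2; adjusted p up to 0.21). SHR, a regulator of root layers that shoots also express, was lower (-0.18 ± 0.05), but not without decapitated library 2 (adjusted p = 0.065). CASP1, which defines the root endodermis, read 0.185, 0.0705 and 0.0819 CPM after decapitation and 0.159, 0.287 and 0.164 in brc1-2. Of 9 seed storage markers only SESA1, an albumin, was tested, with 66, 60 and 37 counts after decapitation, 0, 0 and 2 in brc1-2 and none in intact WT. SESA1 passed the filter on low counts only through the decapitated libraries, so it had to differ and its values are a description. In bulk tissue fewer cells of a type and less RNA per cell cannot be told apart, and the part that leaf, guard cell or phloem tissue has in the other differences was not tested.

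Genes of the bud's own meristem and axil were called in a share near that of all genes. Of 23 tested genes for the shoot meristem and the axil boundary, 5 were higher, 5 lower and 13 not called, beside 24.4% higher and 24.1% lower over all genes, with a median of -0.01, and 18 had an interval within 1.5-fold in either direction. The boundary gene CUC3, whose product sets the axil apart, was the furthest up of the list (0.89 ± 0.18), at 3.94, 3.82 and 4.09 CPM against 1.79, 1.88 and 2.696. BOP2 (0.43), ATH1 (0.38) and PNY (0.27), all active at organ boundaries or in the stem, were higher as well. KNAT1 (-0.41), which patterns the stem, CLV1 (-0.35), the meristem receptor kinase, HAM2 (-0.21) and STM (-0.19), which maintain the meristem, were lower. STM read 37.7, 37.9 and 40.3 CPM, 43.6, 43.1 and 45.6 CPM and, in intact WT, 45.5, 45.9 and 47.4 CPM, so this meristem gene was expressed in every library, at a little less after decapitation.

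BRC1 itself served as a check on the labels. BRC1 (AT3G18550; chromosome 3, 6383289 to 6385815 on TAIR10) read 0.0397, 0.0717 and 0.0329 CPM in brc1-2, 1.76, 1.74 and 1.58 after decapitation and 7.82, 6.55 and 7.84 in intact WT, without overlap between groups. Decapitated buds therefore kept less than intact WT (-2.12 on the log2 scale) but far more than the mutant (5.08 ± 0.31, adjusted p = 7.1e-14). Among its 4 downstream genes none differed past the test between the 2 released groups. HB21 (AT2G18550) read 0.611, 0.599 and 0.8801 CPM after decapitation and 0.476, 0.627 and 0.214 in brc1-2 against 4.77, 6.33 and 5.76 in intact WT, and the direct difference did not pass the test (0.67 ± 0.3, adjusted p = 0.065; it did without brc1-2 library 2a, adjusted p = 0.012). HB40 read 0.111, 0.212 and 0.409 CPM and 0.198, 0.287 and 0.247 CPM against 4.33, 4.02 and 3.52 in intact WT, with a direct difference of -0.03 ± 0.4 and a 95% interval from -0.85 to 0.78. HB53 was at 0.259, 0.159 and 0.287 CPM and 0.119, 0.197 and 0.148 CPM against 2.87, 3.896 and 3.002 in intact WT (0.57 ± 0.42, adjusted p = 0.27). NCED3, the abscisic acid synthesis gene at the end of the module, read 0.574, 0.494 and 0.4298 CPM and 0.516, 0.645 and 0.7397 CPM against 4.53, 4.19 and 4.61 in intact WT (-0.35 ± 0.25, interval -0.86 to 0.17). All 4 lay below intact WT in both groups with no overlap, by -3.69 (HB21), -4.0 (HB40), -4.37 (HB53) and -2.8 (NCED3) on the log2 scale in brc1-2 and -3.02, -4.03, -3.8 and -3.14 after decapitation. The intervals of the direct difference are too wide to call the released groups alike. BRC2, the closest relative of BRC1, read 3.81, 4.71 and 4.95 CPM after decapitation, 6.49, 6.18 and 6.21 in brc1-2 and 5.03, 4.56 and 4.2999 in intact WT, lower after decapitation than in the mutant (-0.49 ± 0.12, adjusted p = 0.00096).

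The largest excess after decapitation was in genes little expressed in both kinds of intact plant. AT1G29090 (chromosome 1, 10162795 to 10164452) held no count in brc1-2 or intact WT and 7.499, 7.39 and 6.51 CPM after decapitation, at least 398-fold more than in brc1-2 (floor of 3 counts over the group). RAP2.6 (AT1G43160; chromosome 1, 16263805 to 16264945), an ethylene response factor (ERF) that answers to jasmonate and stress, read 10.8, 11.1 and 13.3 CPM against 0.119, 0.0717 and 0.131 in brc1-2 (6.73 ± 0.21). Its close relative RAP2.6L, known from the healing of cut stems (AT5G13330; chromosome 5, 4271730 to 4274674) read 46.7, 45.4 and 45.5 CPM against 1.23, 1.07 and 1.299 (5.25 ± 0.09). In intact WT the pair was at 0.0399, 0.0877 and 0.0371 CPM and 0.878, 1.21 and 0.834 CPM, so both genes were low in either intact group. TH8, an h-type thioredoxin, read 28.7, 29.6 and 25.7 CPM against 0.754, 0.735 and 0.7397 (5.23 ± 0.12), and CYP94B3, which inactivates the jasmonate hormone, 2.56, 3.47 and 2.76 CPM against 0.0397, 0.215 and 0 (5.09 ± 0.48). The other 7 of the 12 largest had no symbol in the files: AT3G05770 (8.39), AT2G41800 (6.27), AT2G38240 (4.56), AT3G28550 (4.17), AT5G24240 (4.11), AT1G10585 (4.06) and AT4G22470 (4.0). AT1G29090, AT3G05770, RAP2.6 and AT2G41800 passed the filter on low counts only through the decapitated libraries, so they had to differ and their values are a description. AT5G24240 differed from the rest in its level in intact WT, 4.49, 3.76 and 3.43 CPM, with 0.238, 0.609 and 0.773 in brc1-2 and 9.43, 9.85 and 9.41 after decapitation.

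**Figure D2:**
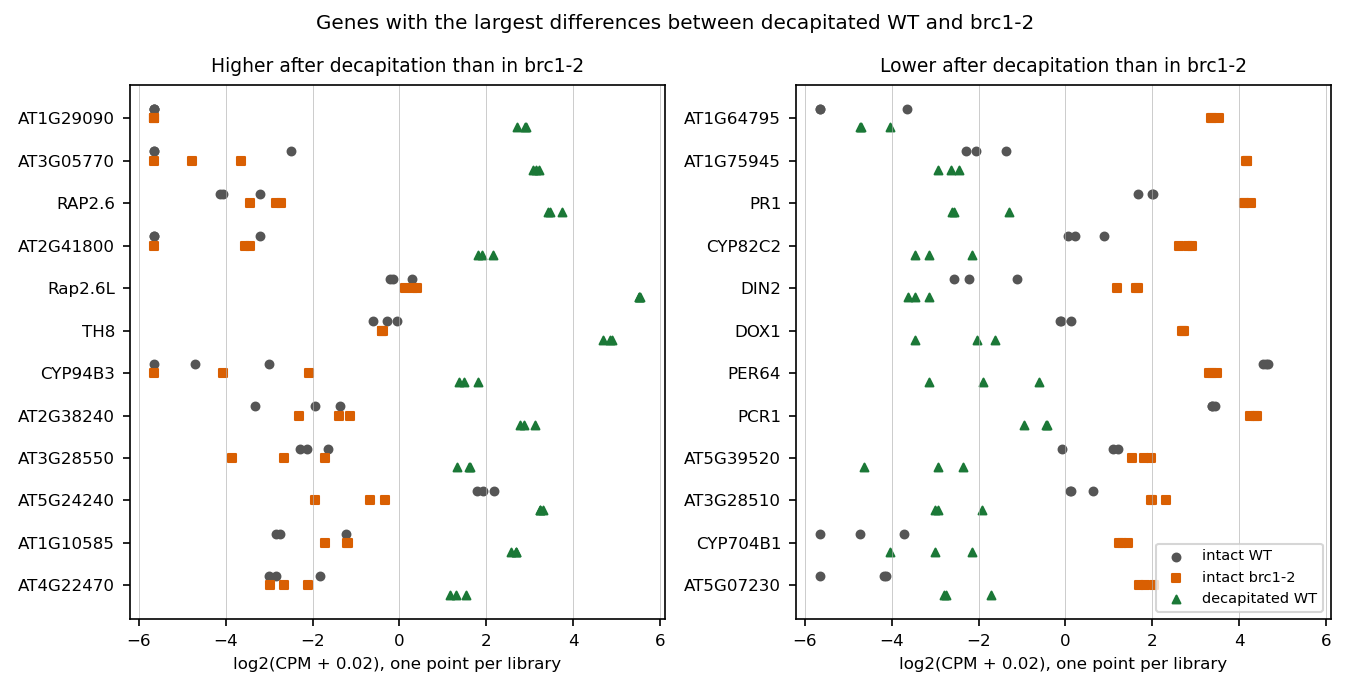
Level of the 12 genes with the largest excess after decapitation (left) and the 12 with the largest excess in brc1-2 (right), as log2(CPM + 0.02), 1 point per library and 3 libraries per group. On the left the decapitated libraries stand alone to the right, with AT5G24240 as the gene where intact WT lies between. On the right PR1, PER64, PCR1, AT5G39520, CYP82C2 and AT3G28510 are among the genes with intact WT well above the decapitated libraries.

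The 12 genes with the largest deficit after decapitation included the defence genes PR1, CYP82C2 and DOX1. PR1 (AT2G14610; chromosome 2, 6241640 to 6242541), the marker of salicylic acid responses, read 0.148, 0.388 and 0.143 CPM after decapitation, 17.3, 17.5 and 19.2 in brc1-2 and 3.93, 3.16 and 4.003 in intact WT (-6.27 ± 0.18, adjusted p = 3.2e-21). CYP82C2, a cytochrome P450 of indole defence compounds, read 0.0926, 0.0705 and 0.205 CPM against 6.11, 7.08 and 7.46 (-5.83 ± 0.27), and DOX1, an alpha-dioxygenase of fatty acids, 0.222, 0.0705 and 0.307 CPM against 6.63, 6.43 and 6.51 (-5.05 ± 0.24). In these 3 genes intact WT lay between, with means of 3.698, 1.32 and 0.963 CPM. DIN2, a beta-glucosidase gene of sugar starvation, read 0.0926, 0.0705 and 0.0614 CPM against 2.24, 3.06 and 3.17 (-5.19 ± 0.39). PER64, a peroxidase, showed a different order: 23.5, 24.6 and 25.1 CPM in intact WT, 10.4, 11.1 and 9.83 in brc1-2 and 0.0926, 0.247 and 0.634 after decapitation (-5.05 ± 0.19). PCR1, a plasma membrane protein named for cadmium resistance, read 0.722, 0.494 and 0.716 CPM against 21.2, 20.7 and 18.95 in brc1-2 and 10.9, 10.4 and 10.3 in intact WT (-4.98 ± 0.12). CYP704B1, an enzyme of the pollen wall, was at 0.204, 0.106 and 0.0409 CPM against 2.32, 2.44 and 2.71 (-4.37 ± 0.39). The remaining 5 had no symbol in the files: AT1G64795 (-8.61), AT1G75945 (-7.01), AT5G39520 (-4.98), AT3G28510 (-4.8) and AT5G07230 (-4.34). AT1G64795 passed the filter on low counts only through the brc1-2 libraries, so it had to differ.

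A few genes were near absent in one group, with at most 3 counts in each of its libraries and at least 50 in each of the other's. In brc1-2 these were 3, all of them with 9 counts or fewer in each intact WT library: AT1G29090, and the neighbours AT3G05770 and LON3 on chromosome 3. AT3G05770 (1710013 to 1712225) held 450, 527 and 433 counts after decapitation, 3, 0 and 1 in brc1-2 and 0, 9 and 0 in intact WT. LON3 (AT3G05780; 1714941 to 1719608), named for a Lon-type protease, held 78, 72 and 51 counts after decapitation and none in the 6 intact libraries, at least 70.1-fold more than in brc1-2. After decapitation the near-absent genes were again 3: AT1G64795 with 1, 1 and 2 counts against 523, 643 and 623 in brc1-2, AT1G66850 with none against 64, 69 and 89, and the sugar transporter gene SWEET3 with none against 91, 110 and 105. SWEET3 also held no count in intact WT, so its signal was seen in the mutant libraries alone of the 9. Leaving out brc1-2 library 2a or decapitated library 3 raised the first count from 3 to 5.

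Other genes lay far from intact WT in both groups and at nearly the same level in them. In 622 genes (2.89%) both groups differed from intact WT by 2-fold or more, and in 174 of these the direct interval lay within 1.5-fold. Of these 174, 7 are on the lists, and the 6 with the narrowest interval follow. KIN2, a cold and abscisic acid response gene, read 82.9, 81.3 and 81.8 CPM after decapitation and 99.9, 106 and 103 in brc1-2 against 369, 382 and 366 in intact WT (direct interval -0.4 to -0.27). CYP79B3, of indole glucosinolate synthesis, read 68.8, 63.9 and 64.001 CPM and 63.2, 64.6 and 62.9 CPM against 148, 145 and 142 (interval -0.03 to 0.12), and AOC1, an allene oxide cyclase of jasmonate synthesis, 9.98, 10.4 and 10.5 CPM and 11.7, 10.2 and 10.2 CPM against 29.6, 30.1 and 26.8 (interval -0.2 to 0.1). The transcription factor gene RD26 read 3.4997, 3.12 and 4.01 CPM and 2.54, 3.74 and 3.5998 CPM against 6.86, 7.53 and 7.14 (interval -0.19 to 0.39). SOT17, a sulfotransferase of glucosinolate synthesis (0.47 ± 0.03), KIN2 (-0.33 ± 0.03) and the phosphatase gene HAI1 (-0.28 ± 0.11, adjusted p = 0.032) still passed the direct test, HAI1 not in 4 fits that left out 1 library (brc1-2 2a or 2b, decapitated 2 or 3; adjusted p up to 0.17).

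Jasmonate is the hormone of wounding and herbivory. Most genes of its breakdown, its repressors and its synthesis, and part of its output, were higher after decapitation than in brc1-2. Most of the synthesis genes differed by little. Of 10 entries for jasmonate turnover 7 were used and tested, and all 7 of these genes were higher, with a median of 0.73. Their summed level was 94.7, 89 and 87.5 CPM after decapitation and 55.2, 54.7 and 53.2 in brc1-2. It was highest in intact WT, at 102, 104 and 106 CPM. JRG21 (AT3G55970; chromosome 3, 20766735 to 20769410), a jasmonic acid oxidase, read 24.6, 22.8 and 23.9 CPM against 2.88, 2.19 and 2.55 in brc1-2 and 1.397, 1.597 and 1.82 in intact WT (3.23 ± 0.1, adjusted p = 2.4e-20). CYP94B1, which hydroxylates the hormone as CYP94B3 does, read 1.74, 1.52 and 1.66 CPM against 0.218, 0.376 and 0.164 (2.69 ± 0.31), but intact WT was at 1.08, 1.77 and 1.54, so here it was the mutant that stood apart. The amidohydrolase gene IAR3 was higher by less (0.27 ± 0.05). Of 14 synthesis genes 9 were higher (8 of 13 without DAD1), none lower and 5 not called, with a median of 0.26, and 12 had an interval within 1.5-fold. DAD1, a phospholipase that frees the fatty acid precursor, passed the filter on low counts only through the decapitated libraries, with 10, 20 and 10 counts against none in brc1-2. AOS, the allene oxide synthase, read 113, 118 and 112 CPM against 79.5, 79.9 and 81.97 (0.51 ± 0.03), LOX2, the chloroplast lipoxygenase, 367, 365 and 369.5 CPM against 282, 282 and 288 (0.37 ± 0.03), OPR3 67.9, 69.2 and 69.5 CPM against 52.3, 52.4 and 53.1 (0.39 ± 0.04) and JAR1, which makes the active conjugate, 59.4, 58.3 and 54.8 CPM against 42.7, 48.5 and 46.7 (0.32 ± 0.05). All 4 were highest in intact WT, at means of 189, 432, 82.3 and 66.5 CPM.

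The JAZ proteins repress jasmonate output and are themselves induced by it. Of 12 tested JAZ genes, 8 were higher, 1 lower and 3 not called, with a median of 0.33. Their summed level was 445, 450 and 440 CPM after decapitation and 342, 337 and 344 in brc1-2. It was highest in intact WT, at 647, 630 and 627 CPM. JAZ10 read 24.8, 23.9 and 24.2 CPM after decapitation, 7.84, 10.6 and 8.76 in brc1-2 and 9.499, 8.58 and 9.75 in intact WT (1.42 ± 0.08, adjusted p = 2e-14), so it was high in the decapitated libraries alone. JAZ9 read 150.1, 147 and 149 CPM, 92.2, 88.9 and 93.3 CPM and 224, 216 and 216 CPM in the same order (0.7 ± 0.03), with intact WT on top. JAZ3 (0.56) and JAZ5 (0.65) were low in brc1-2 alone, at 19.1 and 9.78 CPM, with decapitated WT at 28.2 and 15.4 and intact WT at 29.8 and 15.3 CPM on average. JAZ11 was lower (-0.24 ± 0.08, adjusted p = 0.015), but not without brc1-2 library 2b or decapitated library 3 (adjusted p up to 0.099).

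Jasmonate output has an arm driven by MYC factors and another, shared with ethylene, driven by ERF factors. Of 12 tested genes of the MYC arm, 7 were higher, 3 lower and 2 not called. The shares over all genes were 24.4% higher and 24.1% lower. VSP2 (AT5G24770; chromosome 5, 8500468 to 8502224), a vegetative storage protein, read 344, 339.8 and 322 CPM after decapitation, 113, 116 and 115 in brc1-2 and 266, 259 and 266 in intact WT (1.55 ± 0.03, adjusted p = 7.8e-25). NATA1, an acetyltransferase that modifies ornithine, read 18.1, 18.8 and 18.8 CPM, 3.16, 3.39 and 3.53 CPM and 47.8, 47.9 and 48.5 CPM (2.46 ± 0.07), well below intact WT in both groups. VSP1 (0.62) and the cystine lyase gene CORI3 (0.97) were higher too. The thionin gene THI2.1 ran against its list: 10.5, 12.2 and 9.89 CPM after decapitation, 30.7, 31.5 and 31.4 in brc1-2 and 6.59, 7.33 and 7.58 in intact WT (-1.52 ± 0.07). NAC055 (-2.87 ± 0.56) and JAM2 (-0.31 ± 0.06), both transcription factor genes, were lower as well.

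Of 8 tested genes of the ERF arm, 4 were higher, 2 lower and 2 not called. The shares over all genes were 24.4% higher and 24.1% lower. The defensin gene PDF1.2A was lowest in brc1-2, at 5.26, 5.66 and 4.42 CPM, and read 30.8, 29.5 and 31.5 CPM after decapitation and 185, 184 and 170.0 in intact WT (2.59 ± 0.06, adjusted p = 5e-23). PDF1.2C, a near-identical copy whose reads may be shared with it, read 11.8, 13.9 and 12.2 CPM, 1.65, 1.49 and 1.22 CPM and 115, 117 and 108 CPM (3.14 ± 0.09), and PDF1.3 showed the same order (2.54 ± 0.3). PR4, a chitin-binding protein, was higher by less (0.5 ± 0.04), and PR3, a chitinase, was lower (-0.57 ± 0.09). ORA59, the ERF that controls the defensins, was lower at 4.39, 4.76 and 3.54 CPM against 5.54, 6.74 and 4.57 (-0.4 ± 0.12, adjusted p = 0.0064), with overlapping libraries, and was not called without brc1-2 library 2a (adjusted p = 0.1).

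**Figure D3:**
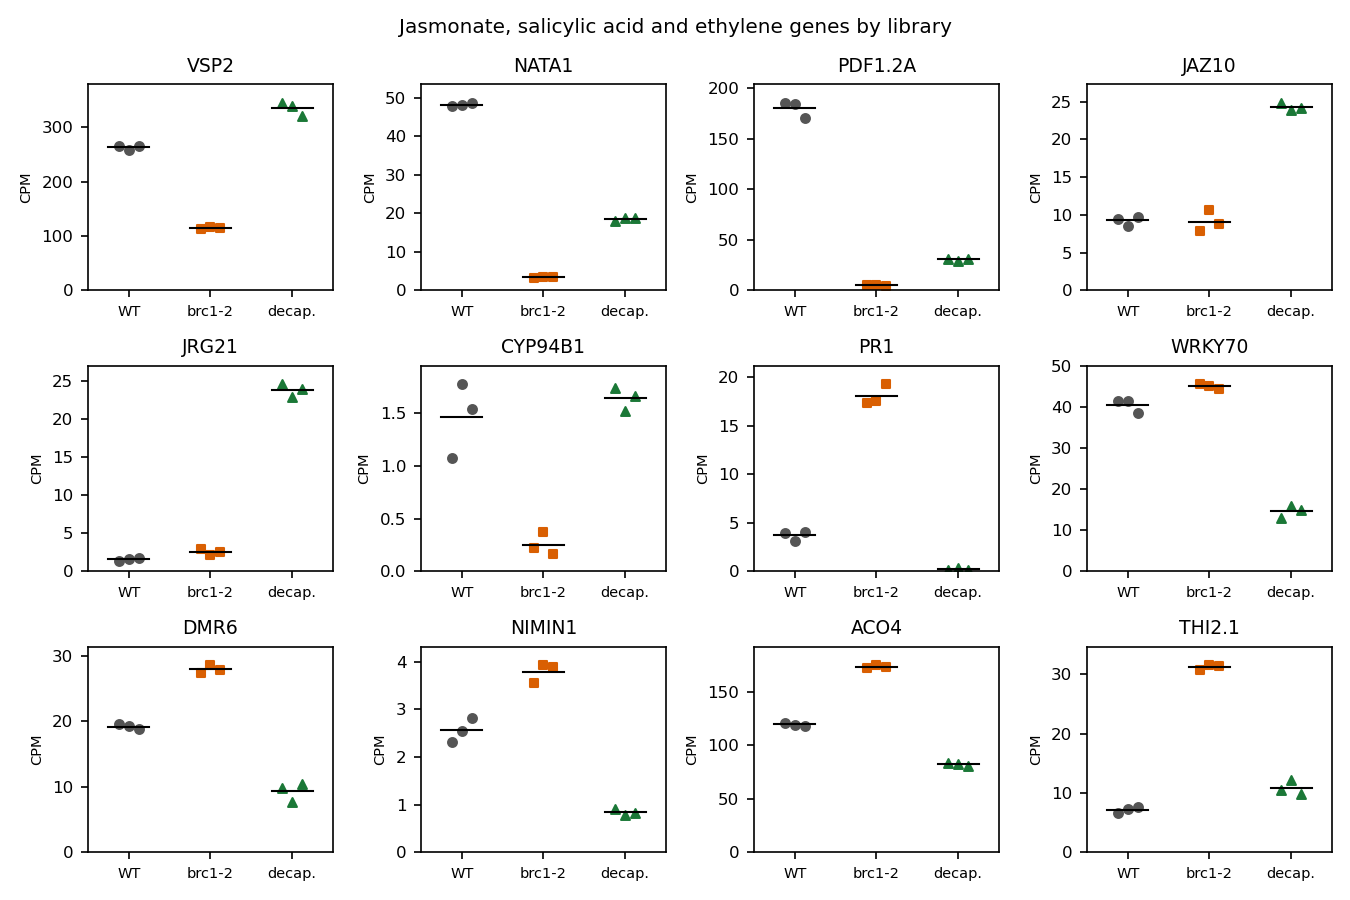
Level in CPM of 12 genes of jasmonate, salicylic acid and ethylene responses in the 2 intact groups and the decapitated one, 1 point per library and a line at the mean of 3. JAZ10 and JRG21 are high in decapitated WT alone, VSP2, NATA1, PDF1.2A and CYP94B1 are low in brc1-2, and PR1, WRKY70, DMR6 and NIMIN1 are lowest in decapitated WT.

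Genes of salicylic acid, the hormone of defence against biotrophic pathogens, were lower after decapitation almost throughout. Of 23 tested genes, 20 were lower, 1 higher and 2 not called, with a median of -0.83; their summed level was 200.3, 201 and 205 CPM against 341, 345 and 346 in brc1-2 and 315, 314 and 305 in intact WT. WRKY70 (AT3G56400; chromosome 3, 20908711 to 20910623), a transcription factor of the response, read 13.1, 15.9 and 15.002 CPM after decapitation, 45.5, 45.2 and 44.4 in brc1-2 and 41.4, 41.4 and 38.6 in intact WT (-1.62 ± 0.06, adjusted p = 3.1e-19). DMR6, which hydroxylates salicylic acid, read 9.87, 7.702 and 10.5 CPM, 27.4, 28.5 and 27.8 CPM and 19.5, 19.3 and 18.8 CPM in the same order (-1.58 ± 0.08). In both genes the decapitated libraries lay below all intact ones. PBS3, an enzyme of its synthesis, was lower too (-1.53 ± 0.11), and EPS1, the enzyme of the following step, was the 1 higher member (0.25 ± 0.07), at 16.7, 15.5 and 16.05 CPM against 13.1, 13.1 and 14.4. Leaf photosynthesis genes moved the same way between the groups, and what part leaf tissue has in this difference was not tested.

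Ethylene genes were lower too, mostly by little. Of 21 tested, 15 were lower, 2 higher and 4 not called, with a median of -0.21; 1 of the 15 passed the filter on low counts only through brc1-2. ACO4, an ethylene-forming oxidase, read 83.2, 82.6 and 80.5 CPM, 172, 175 and 173 CPM in brc1-2 and 121, 119 and 118 CPM in intact WT (-1.08 ± 0.03, adjusted p = 2.9e-21). ARGOS, an ethylene-induced brake on the response, read 3.57, 3.15 and 2.97 CPM, 9.25, 9.44 and 8.22 CPM and 12.2, 11.7 and 12.5 CPM (-1.47 ± 0.1). Both were lowest after decapitation, without overlap. The transcription factor gene EIL1 (-0.5) and the receptor gene ERS1 (-0.35) were lower, while ACO1 (0.19), an oxidase like ACO4, was higher.

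Among wound and regeneration factors of the AP2/ERF family, 6 of 10 tested were higher and none lower (1 without decapitated library 3); RAP2.6 passed the filter on low counts only through the decapitated libraries, and of the other 9 genes 5 were higher. After RAP2.6 and RAP2.6L the clearest were PLT7 at 15.4, 14.3 and 14.04 CPM against 7.56, 7.54 and 8.17 (0.91 ± 0.08) and PLT5 at 9.39, 10.7 and 10.5 CPM against 6.51, 7.43 and 6.197 (0.6 ± 0.1), which take part in shoot regeneration and organ spacing. In intact WT they read 8.56, 8.48 and 8.25 CPM and 7.82, 8.002 and 9.34 CPM, nearer the mutant.

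Dividing cells copy their DNA and then separate it. Genes of DNA replication were at nearly one level in the 2 groups, while genes of mitosis were higher after decapitation. Of 18 tested replication genes, 4 were higher, none lower (1 without decapitated library 3) and 14 not called. Over all genes 24.4% were higher and 24.1% lower. The median of the replication genes was 0.03, and 17 had an interval within 1.5-fold. MCM2, a subunit of the replicative helicase, read 72.5, 73.2 and 75.7 CPM after decapitation and 71.8, 74.97 and 72.5 in brc1-2 against 39.99, 40.6 and 40.1 in intact WT (interval -0.06 to 0.09). MCM7, another subunit, read 84.6, 79.4 and 82.8 CPM and 81.4, 82.9 and 85.5 CPM against 50.3, 49.5 and 47.2 (interval -0.09 to 0.06). The 4 that passed were TSO2 (0.22) and RNR1 (0.1), subunits of ribonucleotide reductase, and the clamp genes PCNA1 (0.24) and PCNA2 (0.11, not called in 3 fits that left out 1 library, brc1-2 1 or 2a or decapitated 1, with adjusted p up to 0.11).

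Of 24 tested genes of mitosis and cytokinesis, 22 were higher, none lower and 2 not called, with a median of 0.7. CDC20.1 (AT4G33270; chromosome 4, 16044169 to 16046937), an activator of the anaphase-promoting complex, read 99.7, 99.6 and 107 CPM after decapitation, 57.9, 57.6 and 58.7 in brc1-2 and 31.6, 31.97 and 29.7 in intact WT (0.81 ± 0.04, adjusted p = 5.2e-16). KNOLLE, a syntaxin of the cell plate, read 88.5, 87.8 and 87.5 CPM, 53.5, 54.7 and 55.4 CPM and 42.99, 44.6 and 41.03 CPM (0.69 ± 0.04). The cyclin gene CYCB1;2 read 69.6, 69.6 and 66.3 CPM, 40.2, 42.2 and 39.4 CPM and 24.9, 25.04 and 26.2 CPM (0.75 ± 0.04), and the kinase gene AUR1 31.4, 32.5 and 32.8 CPM, 16.7, 16.5 and 18.18 CPM and 12.9, 12.9 and 14.03 CPM (0.91 ± 0.06). In each of these 4 genes the groups lay in 1 order, intact WT lowest, brc1-2 next and decapitated WT highest, with no overlap. The median of the list against intact WT was 1.01 for decapitated WT and 0.35 for brc1-2, and for replication 0.67 and 0.6; the 2 sets of values share the intact WT libraries.

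**Figure D4:**
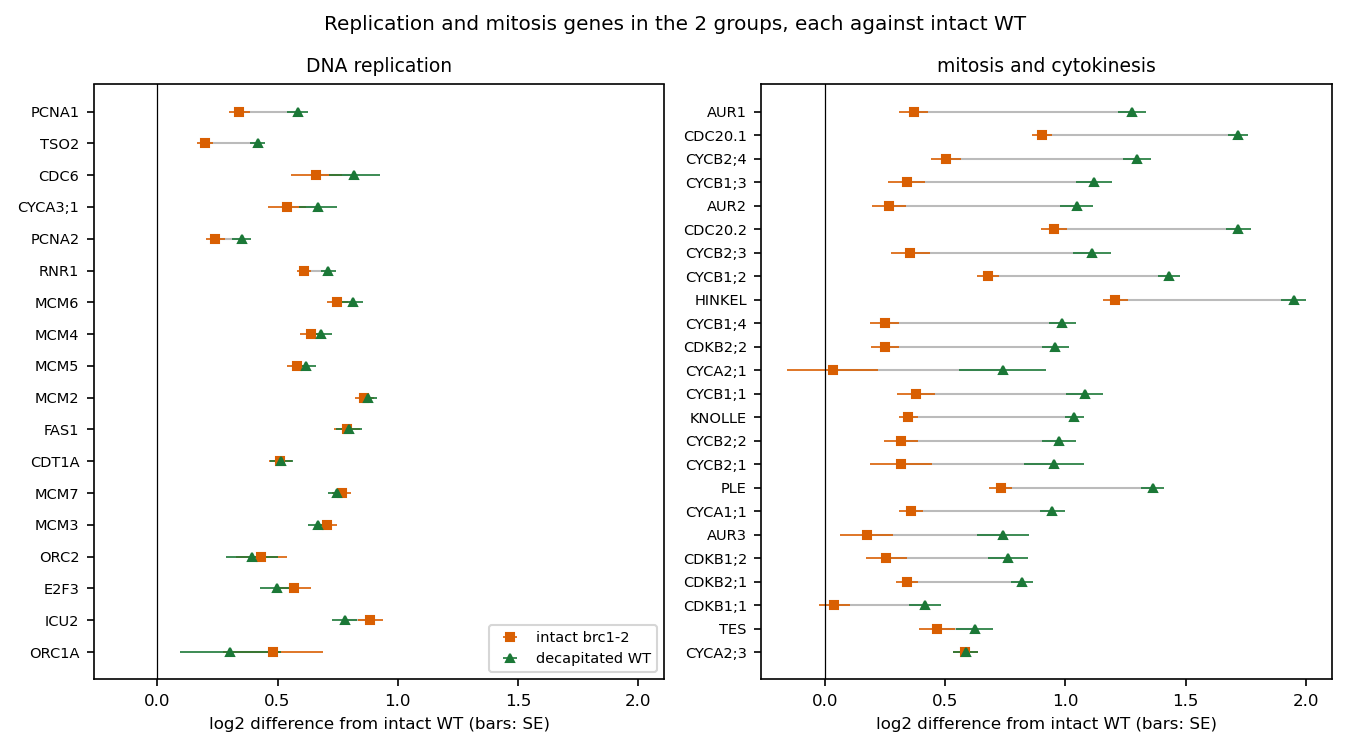
Log2 difference from intact WT of each tested gene of DNA replication (left) and of mitosis and cytokinesis (right), in intact brc1-2 (squares) and decapitated WT (triangles), with bars of 1 SE and 3 libraries per group. On the left the 2 symbols nearly coincide for most genes, as for MCM2 and MCM7; on the right the triangle lies further out for all genes but CYCA2;3 and, within its error, TES.

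Ribosomes are made in quantity by growing cells. All 17 tested genes of ribosomal proteins and nucleolar factors were higher, with a median of 0.36. FIB2, a fibrillarin that guides ribosomal RNA modification, read 270.4, 276 and 264 CPM against 137, 139.6 and 139 in brc1-2 and 112, 114 and 113 in intact WT (0.96 ± 0.03, adjusted p = 1.3e-20). NOP56 (0.57 ± 0.03), CBF5 (0.57 ± 0.03) and the nucleolin gene NUC-L1 (0.45 ± 0.02), which serve the same machinery, were higher as well. Of 10 D-type cyclins, which govern entry into the cycle, CYCD2;1 (0.44), CYCD3;3 (0.37) and CYCD3;1 (0.16) were higher, the last not without decapitated library 3 (adjusted p = 0.083), CYCD1;1 (-0.29) was lower (2 without decapitated library 3) and 6 were not called. Of 11 tested inhibitors of cyclin-dependent kinases, 4 were higher, led by KRP3 (0.58) and KRP7 (0.55), and 2 lower, KRP4 (-0.27) and KRP1 (-0.27). The shares over all genes, to be set beside the counts of cyclins and inhibitors, were 24.4% higher and 24.1% lower. Of 12 growth-regulating factors and their partners, 5 were higher and none lower, though 1 was lower without brc1-2 library 2b and 2 without decapitated library 3. The smallest p-values belonged to the coactivator gene AN3 (0.27) and to GRF4 (0.2), and GRF9 differed most (0.34).

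Genes that mark dormant or sugar-starved buds were lower after decapitation than in brc1-2. Of 21 tested, 16 were lower, 1 higher (2 without decapitated library 3) and 4 not called, with a median of -0.67; their summed level was 369, 372 and 369 CPM, 519, 520.3 and 521 in brc1-2 and 578, 577 and 576 in intact WT. SEN1, a senescence and darkness gene, read 2.204, 1.99 and 2.07 CPM after decapitation, 10.1, 10.1 and 9.29 in brc1-2 and 7.08, 7.703 and 6.098 in intact WT (-2.24 ± 0.12, adjusted p = 2e-15). DRM2, a dormancy-associated gene chosen for mention after its values were seen, read 2.94, 1.82 and 2.66 CPM, 9.09, 8.46 and 9.205 CPM and 20.7, 20.6 and 20.4 CPM (-1.86 ± 0.11). The trehalose phosphate synthase genes TPS8 (-0.83 ± 0.04) and TPS9 (-0.89 ± 0.05) and the glutamate dehydrogenase gene GDH2 (-0.69 ± 0.04) were lower, and the proline dehydrogenase gene PRODH was higher (0.36 ± 0.04). SEN1 was lowest after decapitation and highest in brc1-2, whereas DRM2 was below intact WT in both groups.

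Abscisic acid keeps buds dormant downstream of BRC1. Of 10 tested genes of its synthesis and breakdown, 2 were higher, 4 lower and 4 not called. The shares over all genes were 24.4% higher and 24.1% lower. CYP707A4, which breaks the hormone down, read 15.1, 15.2 and 16.3 CPM after decapitation, 5.52, 6.02 and 6.76 in brc1-2 and 11.8, 11.9 and 13.3 in intact WT (1.34 ± 0.09, adjusted p = 1.6e-13), and CYP707A1 was higher by less (0.39). ABA1, the epoxidase at the start of synthesis, read 205, 206 and 200.5 CPM, 282, 283 and 279 CPM and 309, 310.0 and 303 CPM (-0.46 ± 0.03), while the breakdown genes CYP707A2 (-0.6) and CYP707A3 (-0.59) were lower. Breakdown genes were thus called in both directions. Of 24 tested response genes, 15 were lower, 4 higher and 5 not called, with a median of -0.22. Their summed level was nearly the same, 1049, 1046 and 999 CPM against 1062, 1068 and 1060.5 in brc1-2, with 2019, 2011 and 2029 in intact WT. The cold response gene COR15B (-2.15 ± 0.17), RD20 (-0.67 ± 0.06), which encodes a caleosin, and the phosphatase gene ABI1 (-0.48 ± 0.05) were lower. KIN1 was higher, at 4.35, 5.08 and 3.97 CPM against 0.834, 1.02 and 1.22 and 7.404, 6.21 and 7.14 in intact WT (2.11 ± 0.16), whereas KIN2 was lower. RD22 (0.4) and the dehydrin gene LTI30 (0.81) were higher with it.

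Of 27 tested Aux/IAA genes, which encode auxin-induced repressors, 10 were lower, 6 higher and 11 not called, beside 24.4% higher and 24.1% lower over all genes. IAA19 read 10.7, 11.1 and 10.1 CPM after decapitation, 20.5, 22.2 and 22.8 in brc1-2 and 20.4, 19.1 and 20.04 in intact WT (-1.04 ± 0.06, adjusted p = 9.1e-14), and IAA2 (-0.7), IAA7 (-0.47) and IAA14 (-0.61) were lower with it. IAA19 was low after decapitation alone. IAA27 (0.43), IAA17 (0.58) and IAA26 (0.22) were higher. Of 14 auxin carriers, 6 were higher and 6 lower. The uptake carrier gene LAX3 was higher (0.7 ± 0.05). The efflux carrier genes PIN4 (-0.65 ± 0.04) and PIN7 (-0.56 ± 0.04) were lower: PIN4 read 62.9, 69.1 and 67.2 CPM against 104, 105 and 104 and 83.2, 81.1 and 83.4 in intact WT. PIN4 thus lay below intact WT after decapitation and above it in brc1-2. In synthesis 9 genes were tested, of which 4 were higher and 1 lower, the count of higher genes dropping to 1 or 2 without any brc1-2 library or without decapitated library 2 or 3. YUC4 was higher at 4.65, 4.65 and 4.99 CPM against 2.34, 2.096 and 1.82 (1.19 ± 0.17) and YUC3 lower at 0.03703, 0.0705 and 0.0819 CPM against 0.754, 0.752 and 0.427 (-3.31 ± 0.59); both encode flavin monooxygenases of the last step. Of 5 tested GH3 genes, which conjugate auxin, GH3.3 (0.6) was among 3 that were higher and GH3.5 (-0.39) was lower.

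Cytokinin promotes bud growth. Of 8 tested type-A response regulators, which cytokinin induces, 4 were higher, 1 lower and 3 not called. ARR5 read 36.8, 37.7 and 36.7 CPM after decapitation, 21.95, 22.4 and 22.7 in brc1-2 and 35.003, 35.4 and 32.7 in intact WT (0.73 ± 0.05, adjusted p = 4e-13), and ARR6 30.7, 29.2 and 27.7 CPM, 15.5, 16.2 and 17.8 CPM and 20.3, 18.21 and 20.3 CPM (0.82 ± 0.06). ARR4 (0.35) and ARR15 (0.23) were higher, and ARR16 was lower (-0.37). ARR5 was low in brc1-2 alone. Of 15 tested genes of cytokinin synthesis, activation and transport, 3 were higher (5 without brc1-2 library 2b), 4 lower and 8 not called. Their median was 0.03, and over all genes 48.5% were called. IPT3, a cytokinin synthesis gene of the phloem, read 39.8, 39.97 and 34.3 CPM against 22.2, 21.4 and 21.3 and 41.8, 38.01 and 37.4 in intact WT (0.81 ± 0.06), and the exporter gene ABCG14 was higher too (0.67 ± 0.04). LOG1, which activates the hormone, was lower (-0.82 ± 0.05), as was LOG5 (-1.24 ± 0.19). Of 6 tested oxidases, which degrade it, CKX3 (1.16) and CKX5 (0.46) were among 3 that were higher, and none was lower (1 without intact WT library 1, brc1-2 library 2b or decapitated library 3).

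Strigolactone moves from root to shoot and represses branching. Of 5 synthesis genes, CCD7 (-1.66 ± 0.41), CCD8 (-0.58 ± 0.14) and D27 (-0.54 ± 0.12) were lower, LBO1 was higher (0.29 ± 0.11, but adjusted p up to 0.17 in 4 fits that left out brc1-2 2a or 2b or decapitated 2 or 3) and MAX1 was not called. Of 12 tested genes of strigolactone and karrikin signalling none was higher and 6 were lower, led by the repressor genes SMXL6 (-0.44 ± 0.05) and SMXL7 (-0.33 ± 0.04), the karrikin receptor gene KAI2 (-0.26 ± 0.05) and the strigolactone receptor gene D14 (-0.27 ± 0.06), and 11 had an interval within 1.5-fold.

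Gibberellin genes showed single large differences. GA2OX2 (AT1G30040; chromosome 1, 10537457 to 10540044), which inactivates the hormone, read 24.3, 25.2 and 25.5 CPM after decapitation, 5.52, 4.71 and 4.96 in brc1-2 and 9.64, 9.14 and 9.75 in intact WT (2.3 ± 0.08, adjusted p = 6.2e-20), so the released groups lay on opposite sides of intact WT. The synthesis genes GA20OX1 (-0.92 ± 0.11) and GA3OX1 (-0.56 ± 0.09) and another inactivating gene, GA2OX1 (-1.03 ± 0.18), were lower. Of 8 tested oxidases 2 were higher, 4 lower and 2 not called, beside 24.4% higher and 24.1% lower over all genes. The other higher gene was GA20OX2, of synthesis, at 1.02, 0.881 and 1.19 CPM against 0.397, 0.305 and 0.674 and 1.06, 0.684 and 0.482 in intact WT (1.15 ± 0.35, adjusted p = 0.0072), a call lost without brc1-2 library 2a (adjusted p = 0.052). Of 11 tested receptors, DELLA proteins and GASA genes, GASA1 (0.86 ± 0.04) and the receptor gene GID1A (0.82 ± 0.06) were higher and 6 were lower. GASA6, a gibberellin-induced growth peptide, led these with 36.8, 37.5 and 37.3 CPM against 74.000, 70.1 and 70.3 and 37.96, 42.3 and 38.1 in intact WT (-0.94 ± 0.05), so the mutant stood apart.

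Most flower and anther genes tested were lower after decapitation than in brc1-2. Of 17 tested genes of floral meristems and organs, 11 were lower, 2 higher and 4 not called, with a median of -0.51. PI, which specifies petals and stamens, read 6.78, 7.37 and 5.997 CPM after decapitation, 12.7, 14.3 and 15.4 in brc1-2 and 5.81, 5.55 and 5.39 in intact WT (-1.07 ± 0.09, adjusted p = 1.4e-10), so decapitated buds were near intact WT. SEP1 read 3.28, 3.44 and 4.01 CPM, 7.404, 6.72 and 7.02 CPM and 3.15, 3.597 and 3.22 CPM (-0.98 ± 0.12), and SEP2 (-0.81) and SEP4 (-0.66), its relatives, were lower as well. AP2 (0.31) and JAG (0.8), a gene for organ growth, were higher.

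Of 14 entries for the tapetum, the inner layer of the anther, and for sporopollenin of the pollen wall, 13 were used and tested, 11 were lower and 2 not called. MS1, MYB80, CYP703A2 and MS2 passed the filter on low counts only through the brc1-2 libraries, so they had to differ, and of the other 9 genes 7 were lower. ACOS5 (AT1G62940; chromosome 1, 23310532 to 23312795), an acyl-CoA synthetase of sporopollenin, read 0.481, 0.476 and 0.655 CPM after decapitation, 7.72, 7.13 and 7.31 in brc1-2 and 0.01996, 0.0351 and 0.111 in intact WT (-3.78 ± 0.19, adjusted p = 1.2e-15). AMS, the master regulator of the tapetum, read 0.333, 0.705 and 0.737 CPM, 5.12, 4.41 and 4.52 CPM and 0.239, 0.0351 and 0.0371 CPM (-2.98 ± 0.27). CYP703A2 held 33, 29 and 41 counts in brc1-2 and none in the other 6 libraries, at least 32.8-fold more than after decapitation. The median was -3.78, or -3.52 with genes at 0 set to their bound, and -2.98 over the 9 genes that did not have to differ, and the summed level was 15.5, 14.1 and 16.1 CPM against 46.96, 46.4 and 46.9 in brc1-2.

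Of 9 tested SPL genes, which promote phase change and flowering, 7 were lower and none higher (1 without decapitated library 1 or 2), led by SPL9 at 37.2, 35.3 and 36.9 CPM against 45.8, 47.1 and 45.6 and 34.7, 36.1 and 38.6 in intact WT (-0.34 ± 0.05) and SPL4 (-0.47 ± 0.08). Of 16 tested flowering-time genes, 9 were lower and 3 higher, against 24.1% lower and 24.4% higher over all genes, and without decapitated library 2 the 9 became 5. TEM2, a floral repressor, read 9.18, 9.48 and 8.64 CPM, 24.6, 25.3 and 24.3 CPM and 21.1, 20.3 and 20.6 CPM (-1.44 ± 0.06, adjusted p = 2e-17), and was low after decapitation alone. SOC1, a floral promoter, was lower too (-0.46 ± 0.05). TFL1, which keeps shoot meristems from becoming flowers, was higher at 12.999, 10.5 and 10.9 CPM against 7.11, 7.09 and 6.41 and 15.1, 15.9 and 14.9 in intact WT (0.74 ± 0.09), so it was lowest in the mutant.

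Secondary wall genes, active in xylem and fibres, were lower after decapitation. Of 23 tested, 20 were lower, none higher and 3 not called, with a median of -0.65; the summed level was 260.4, 266 and 253 CPM against 376, 375 and 379.9 in brc1-2 and 367, 375 and 369.9 in intact WT. CESA7 (AT5G17420; chromosome 5, 5736630 to 5741500), a cellulose synthase of the secondary wall, read 14.96, 14.6 and 14.4 CPM after decapitation, 28.8, 28.1 and 30.8 in brc1-2 and 23.2, 24.9 and 23.1 in intact WT (-1.0 ± 0.06, adjusted p = 1.2e-14). CESA8 (-0.82 ± 0.06) and CESA4 (-0.72 ± 0.05), its partners, and the laccase gene LAC4 (-0.78 ± 0.06), which polymerises lignin, were lower as well. XCP1, a protease of vessel cells, was 1 of the 3 not called, at 43.5, 41.4 and 39.9 CPM against 42.1, 40.2 and 41.9 (interval -0.08 to 0.1).

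**Figure D5:**
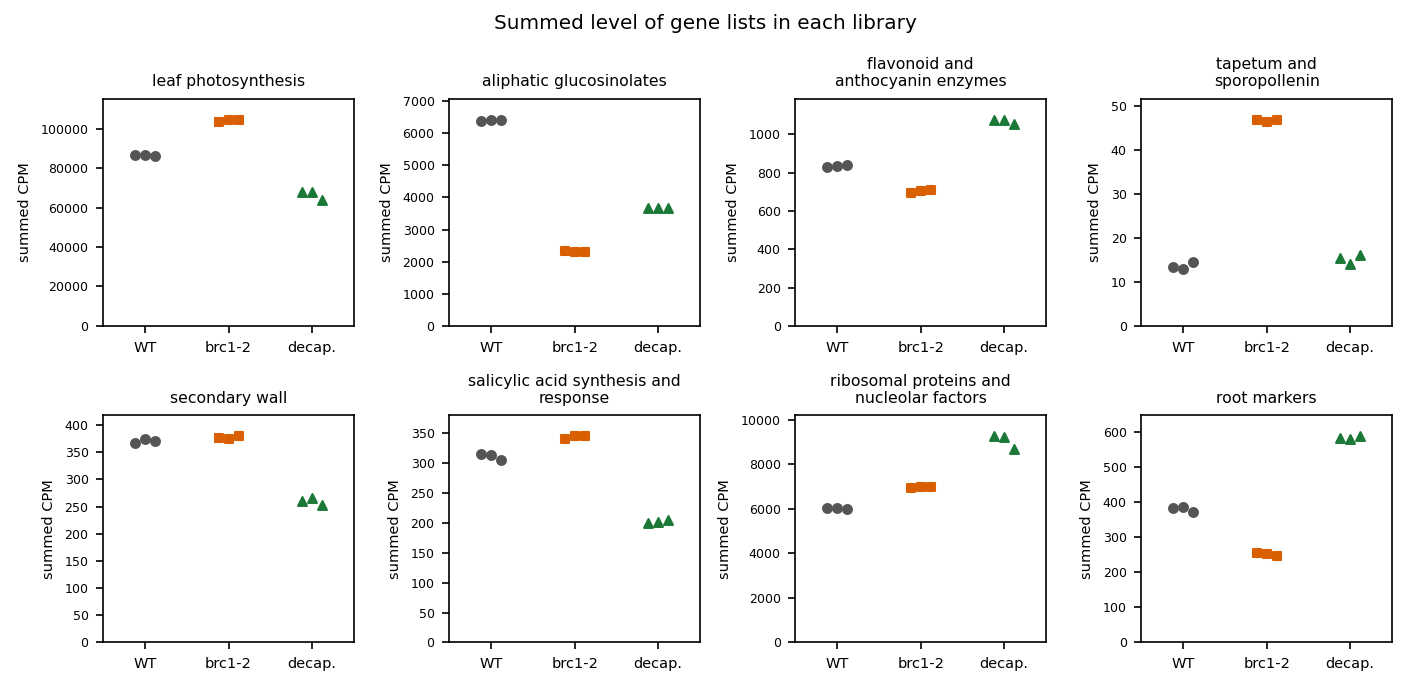
Summed level in CPM of 8 gene lists in each of the 9 libraries, 3 per group. The brc1-2 libraries are highest for photosynthesis (103490 to 104710 CPM) and tapetum genes. They are lowest for aliphatic glucosinolate and flavonoid genes and for the sum of root markers. That sum is mostly PYK10, and the 5 tested root markers had a median log2 difference of -0.05. Decapitated WT is lowest for photosynthesis, secondary wall and salicylic acid genes.

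Flavonoid and aliphatic glucosinolate genes were higher after decapitation than in brc1-2, though they lay differently to intact WT. Of 12 tested enzymes of flavonoids and anthocyanins, 11 were higher and 1 was not called, with a median of 0.72. DFR (AT5G42800; chromosome 5, 17164093 to 17166032), the dihydroflavonol reductase of anthocyanin synthesis, read 126, 129 and 120.4 CPM after decapitation, 43.7, 47.03 and 45.6 in brc1-2 and 98.4, 101 and 96.9 in intact WT (1.46 ± 0.04, adjusted p = 1.5e-22). LDOX (1.2 ± 0.03), GSTF12 (1.1 ± 0.05) and UF3GT (1.41 ± 0.07), which act after it, showed the same order, with decapitated WT above and brc1-2 below intact WT. Of 16 tested regulators, 7 were higher and 4 lower, beside 24.4% higher and 24.1% lower over all genes. PAP1, the MYB activator of anthocyanins, read 17.55, 17.4 and 15.7 CPM, 7.68, 8.76 and 8.65 CPM and 30.99, 30.2 and 30.9 CPM (1.01 ± 0.07), with intact WT highest, and GL3, its bHLH partner, was higher (1.31 ± 0.13). MYBL2, a repressor of the pathway, was lower (-1.15 ± 0.08). The regulator genes MYB114 (-1.66) and TTG1 (-0.22) were lower as well.

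All 13 tested genes of aliphatic glucosinolates, the methionine-derived mustard oils, were higher after decapitation, with a median of 0.7. Their summed level was 3664, 3677 and 3669.6 CPM, 2320.2, 2310.2 and 2313 in brc1-2 and 6386, 6426 and 6407 in intact WT, so both groups lay below intact WT and brc1-2 lay lower. CYP79F1 (AT1G16410; chromosome 1, 5608682 to 5612064), which opens the pathway, read 573, 579.8 and 604 CPM, 334, 314 and 319.7 CPM and 977, 1002 and 995 CPM (0.86 ± 0.03, adjusted p = 3.3e-20). MYB29, a regulator of the pathway, read 146, 148 and 154 CPM, 77.9, 75.96 and 71.6 CPM and 189, 192 and 191 CPM (0.99 ± 0.03), and CYP83A1 (0.71 ± 0.03) and BCAT4 (0.7 ± 0.03), early enzymes, were higher with it. Genes of indole glucosinolates and shared steps were mixed: of 12 tested, 7 were higher and 4 lower. The transporter gene GTR2 (0.5) and SUR1 (0.3), a shared lyase, were higher, and the myrosinase genes TGG1 (-0.58) and TGG2 (-0.56), which break glucosinolates down in leaves, were lower.

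Nuclear factor Y (NF-Y), named in the title of the study, is a trimer of NF-YA, NF-YB and NF-YC subunits that binds CCAAT boxes, and Polycomb complexes silence genes through H3K27me3. Of 22 tested NF-Y genes, 6 were lower, 3 higher and 13 not called, beside 48.5% called over all genes, with a median of -0.06, and 18 had an interval within 1.5-fold. NF-YC4 read 10.6, 12.4 and 11.9 CPM after decapitation, 18.5, 17.9 and 17.64 in brc1-2 and 21.2, 19.4 and 19.998 in intact WT (-0.63 ± 0.07, adjusted p = 6.6e-09), and NF-YB3 28.3, 27.95 and 25.7 CPM, 37.1, 38.6 and 38.8 CPM and 41.7, 39.9 and 38.7 CPM (-0.48 ± 0.05). Both were lower after decapitation than in either intact group, without overlap. NF-YB8 (0.66 ± 0.08) and NF-YB10 (0.35 ± 0.06) were higher. Of 11 tested Polycomb subunits and H3K27 demethylases, MSI1 was higher (0.1 ± 0.04, adjusted p = 0.045) and ELF6 lower (-0.16 ± 0.05, adjusted p = 0.015), neither in every fit that left out 1 library (adjusted p up to 0.17 in 5 fits for MSI1 and 0.13 in 4 for ELF6), and 10 of the 11 had an interval within 1.5-fold. CLF, the methyltransferase of the complex, read 33.3, 35.6 and 37.3 CPM after decapitation and 34.9, 32.98 and 34.3 in brc1-2 against 23.5, 23.95 and 24.9 in intact WT (interval -0.05 to 0.16).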

How the data were processed

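Axillary tissue RNA was prepared with TRIzol and an NEB library kit and sequenced as paired 150-base reads, per the labels' protocols. The submitters' processing notes name the build TAIR10 and, among tools, featureCounts 2.0.1, HISAT2 2.0.5, fastp 0.23.1, DESeq2 1.32.0, cutadapt 3.5 and SAMtools 1.13. The authors deposited whole-number gene counts for 32833 genes in 9 libraries, and neither the use of strand nor the treatment of multiply mapped reads is given in the sources used here. The 2 brc1-2 columns with the same heading are called 2a and 2b. No column of per-sample values lacked a label, and the 6 seedling columns and the CUT&Tag samples were not analysed here.

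Counts were fitted with edgeR 4.0.16 (R 4.3.3, limma 3.58.1): filterByExpr (minimum count 10, minimum total 15), TMM scaling and the quasi-likelihood test over all 9 libraries with a group term, Benjamini-Hochberg adjustment over 21539 genes and a threshold of 0.05. The biological coefficient of variation was 5.11%. CPM values use TMM-scaled library sizes. The SE was derived from the log2 change and the F statistic (their ratio with the root of F), and intervals are at 95%. DESeq2 1.42.0 served as an alternative. In counts simulated for 21348 genes of this comparison, 66 genes were changed by 1.5-fold, 67 by 2-fold and 65 by 4-fold. The test recovered 81.8%, 88.1% and 96.9% of these, and 16 unchanged genes were called. In the real data 48.5% of genes were called, far more than were changed in the simulation, so its rates need not hold there. An exact permutation test of 3 libraries against 3 cannot give a p below 0.1, so single values were not tested that way. Depth was similar in all libraries, and floors (3 counts) cover counting error only. In each library 60.8% to 64.7% of the small nonzero counts were even. If some fragments were counted 2 times, the chi-square ratios and the folds bounded by a floor would be too high. Such double counting was not tested. With all counts halved, 5182 genes were higher and 5178 lower.

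The 54 gene lists (797 entries, of which 21 had no symbol in the reference and 1 was not in the table, leaving 775) and the members were chosen with earlier results of these data known. Genes named in the text are the 12 largest differences in each direction with groups that do not overlap and a mean level no lower than 1 CPM, BRC1, BRC2, HB21, HB40, HB53 and NCED3, the 6 list members with the narrowest interval among those far from intact WT in both groups, and up to 4 members of each list per direction with the smallest p. CLF, CYP703A2, DAD1, DRM2, MCM2, MCM7, PYK10, CASP1, XCP1 and the genes near absent in a group lie outside that rule or were picked out after their values were seen. Symbols, found for 10871 of the identifiers, are the gene names of the deposited seedling table or, where it has none, those of the RefSeq table of TAIR10.1, and coordinates are those of the axillary table. Alternatives covered scaling, test, filter, threshold, the 6 libraries alone and each library left out. Some members of the lists are counted but not reported here by name.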

Additional observations from a re-analysis of the deposited data

How the results depend on the processing

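Of the 302 named genes none reversed its direction in any of the 19 alternative settings that gave it a value; 289 had one under the stricter filter, 297 with counts halved and 301 in the 6 libraries alone. The settings that moved a total by over 1.5 times were a stricter filter (1 CPM in 3 libraries), which left 488 genes lower by 2-fold or more, and a test against a 1.5-fold difference (glmTreat), which left 452 genes higher and 732 lower, 528 lower by 2-fold or more, and 57 list members higher and 86 lower; fewer genes enter the first and the second asks for a larger difference. Without a filter 56.6% of the called genes were higher, against 50.3%. With 1 library left out, 4733 to 5325 genes were higher and 4656 to 5168 lower, 397 to 428 and 750 to 818 of them by 2-fold or more, list members numbered 206 to 220 higher and 266 to 284 lower, 14278 to 14709 intervals lay within 1.5-fold, 3 to 4 genes were near absent after decapitation and 3 to 5 in brc1-2. Without brc1-2 library 2a, or without decapitated library 3, the last count was 5. Leaving out 1 library ended the call of 23 named genes in at least 1 fit, most often MYB51, which lost it in 8 fits. No paired analysis was possible because the 2 brc1-2 columns share a number, so that only number 1 is shared for certain. Depth limits genes of few counts, such as the downstream genes of BRC1.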

Other observations

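Genes of nitrogen use and light signalling were mostly lower after decapitation than in brc1-2. Of 16 tested genes of nitrate transport and nitrogen assimilation, 9 were lower and 4 higher. The shares over all genes, also for the lists below, were 24.1% lower and 24.4% higher. NRT1.1, a nitrate transporter and sensor, read 53.6, 55.3 and 51.6 CPM against 85.3, 82.6 and 82.3 in brc1-2 and 96.2, 95.8 and 96.1 in intact WT (-0.64 ± 0.04, adjusted p = 7.3e-15). NRT1.5, which loads nitrate into the xylem, was higher, at 51.6, 51.4 and 49.3 CPM against 15.5, 18.7 and 18.6, and read 58.8, 56.6 and 61.1 in intact WT (1.52 ± 0.06), so the mutant stood apart. GS2, the chloroplast glutamine synthetase, was lower (-0.45 ± 0.03). Of 10 tested PIF and shade genes 6 were lower and 2 higher. PIF7, a growth-promoting bHLH factor of the shade response, read 16.04, 16.02 and 16.5 CPM against 28.4, 29.9 and 29.1 and 13.8, 13.8 and 13.5 in intact WT (-0.85 ± 0.05, adjusted p = 2.1e-13), and PIF4 54.4, 56.5 and 57.6 CPM against 80.7, 82.4 and 82.2 and 106, 106 and 113 (-0.54 ± 0.04). Of 17 tested clock genes 10 were lower, with a median of -0.22, and RVE1, a morning factor that raises auxin synthesis, was the furthest down at 10.9, 11.9 and 12.5 CPM against 21.9, 22.02 and 22.96 (-0.93 ± 0.06). The hour of harvest is not stated in the sources used here. Leaf photosynthesis genes were lower in the same direction, and their part in these differences was not tested.

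Sugar carriers and wall-loosening genes differed by member. Of 27 tested sugar transporters, invertases and related genes, 12 were lower, 5 higher and 10 not called. SWEET3 passed the filter on low counts only through brc1-2, and of the other 26 genes 11 were lower. SWEET17, a fructose channel of the vacuole, was higher at 92.7, 95.9 and 95.95 CPM against 66.5, 65.7 and 62.5 and 131, 128 and 127 in intact WT (0.55 ± 0.03, adjusted p = 1e-13). STP1, a hexose importer, was lower at 47.2, 43.8 and 44.9 CPM against 74.3, 70.6 and 72.7 and 58.2, 55.8 and 59.5 (-0.68 ± 0.04). TPS1, which makes the sugar signal trehalose 6-phosphate, read 96.1, 100.2 and 107 CPM against 79.6, 82.8 and 86.6 and 52.7, 51.6 and 52.7 (0.28 ± 0.04), so both groups were above intact WT. Of 4 expansin genes, which loosen cell walls, EXPA10 (0.46) and EXPA5 (0.35) were higher and EXPA8 (-1.46) and EXPA1 (-0.32) lower. Of 16 tested phosphate starvation genes 5 were higher and 6 lower, and of 9 tested heat shock genes 4 were higher and 1 lower. Over all genes 24.4% were higher and 24.1% lower. HSP17.6A passed the filter on low counts only through the decapitated libraries, and of the other 8 heat shock genes 3 were higher; the lower count was 2 without brc1-2 library 2b or decapitated library 3.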
